A study of Mus musculus with 8 samples.

Results

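The genes described here, 9 of the 21859 Ensembl gene IDs in the count table, encode B-cell surface coreceptors, inhibitory receptors and the phosphatase that the latter recruit: Cd81, Ptprc, Cd24a, Cd22, Cd72, Siglecg, Fcgr2b, Pirb and Ptpn6. They were chosen by name, and each matched 1 gene ID in GENCODE M21. For the comparison of activating with inhibitory members, Cd81 and Ptprc (2 genes) were taken as positive, Cd22, Cd72, Siglecg, Fcgr2b and Pirb (5 genes) as inhibitory receptors, Ptpn6 as the inhibitory phosphatase, and Cd24a was put in neither class.

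PER-M60, a leukaemia line from mouse, was grown as 4 cultures in control medium and as 4 in medium conditioned by osteoclasts (bone-resorbing cells), and gene counts from RNA sequencing are available for all 8. The cultures share this 1 line, and its driver lesion, the culture time and the way the medium was conditioned are not given in the sources used here. The replicates are described as cultures, but not whether they were started independently, so p-values measure the spread between these samples, which may be technical. Total counts ranged from 15391754 to 21637966 per culture, and no batch is named in the labels.

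Signals from the B-cell receptor, and from the pre-B-cell receptor before it, are tuned at the membrane by opposed sets of proteins. CD81 takes part in a coreceptor complex that brings in phosphoinositide 3-kinase, and the phosphatase CD45 (Ptprc) keeps Src-family kinases ready to act. Receptors with an inhibitory tyrosine motif in their tail, such as CD22, CD72, Siglec-G and the Fc receptor encoded by Fcgr2b, are phosphorylated by the kinase LYN and then recruit phosphatases, SHP-1 (Ptpn6) for most of them and SHIP-1 (Inpp5d) for the Fc receptor.

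In osteoclast-conditioned medium the largest difference among these genes was a fall of Cd22 by about 26.1% (a fold of 0.739). Cd72 and Cd24a fell by 15.6% and 11.4%, while Ptprc and Fcgr2b rose by 10.8% and 10.2%. Cd81, Siglecg and Ptpn6 did not pass the test, and Pirb was too low to be tested. Of the 8 genes tested, 5 therefore had a Benjamini-Hochberg adjusted p under 0.05 in edgeR's quasi-likelihood test, 2 higher and 3 lower, against 30.5% of all 10729 genes tested (15.7% higher and 14.8% lower). With libraries scaled by total counts only, 40.7% of all called genes were higher in place of 51.6%, and the same number of members was called in each direction. The same 5 genes had groups that did not overlap, which held for 28.2% of all genes tested.

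Stretches just before the RefSeq start site are shown for Cd22 and Cd72, the inhibitory receptors that fell, and for Ptprc, the positive member that rose (RefSeq, GRCm38.p6, minus strand, written 5′ to 3′ in the direction of the gene). Of the 250 bases before each start, the part nearest to it that lies in no GENCODE exon of the gene is given. The stretches are, in the order Cd22, Cd72 and Ptprc, at chr7:30879029-30879176, chr4:43454629-43454876 and chr1:138175307-138175555. Those of Cd22 and Ptprc lie within the gene's span in GENCODE, since other transcripts start further upstream, and Ptprc has a further RefSeq start site downstream that is not shown. Capitals mark letters that match a motif searched on both strands.
Cd22: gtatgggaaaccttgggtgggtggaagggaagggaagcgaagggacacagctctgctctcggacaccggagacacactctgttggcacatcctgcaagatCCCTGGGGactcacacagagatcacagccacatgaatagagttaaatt
Cd72: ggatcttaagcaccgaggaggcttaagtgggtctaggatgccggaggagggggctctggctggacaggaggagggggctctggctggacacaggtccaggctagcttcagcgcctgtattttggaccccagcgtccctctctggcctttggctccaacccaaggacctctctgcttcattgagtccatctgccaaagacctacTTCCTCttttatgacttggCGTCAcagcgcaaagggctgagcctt
Ptprc: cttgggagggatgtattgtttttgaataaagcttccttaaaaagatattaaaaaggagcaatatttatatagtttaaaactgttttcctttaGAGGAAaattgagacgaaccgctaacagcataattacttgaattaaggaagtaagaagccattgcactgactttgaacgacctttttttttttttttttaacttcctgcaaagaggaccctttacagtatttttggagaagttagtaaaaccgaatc
The capitals in Cd22 are a match to CCCNNGGG, the core bound by the B-lineage factor EBF1, which starts 48 bases before the start site. Those in Cd72 are the PU.1 core GAGGAA and the cAMP-response core TGACG, both on the other strand, and those in Ptprc are GAGGAA, 158 bases before the start. Among the 32851 windows of 250 bases in the RefSeq table, 11.8% hold CCCNNGGG, 23.3% GAGGAA and 17.8% TGACG. Of the 8 members with a window in the table, Cd22 and Cd81 hold CCCNNGGG, and Cd72, Pirb, Ptprc and Siglecg hold GAGGAA. Members are counted by gene here, if any window of theirs matches. Ptprc and Siglecg each have a further window without GAGGAA, so the counts of members are not shares of windows. The E-box CAGCTG (13.0% of windows) was found in Cd81 alone, and TGATGNAA, the core of the amino acid response element (3.45% of windows), in none. The searched motifs do not overlap each other in the windows shown, and a match is a description of letters, not of a bound site. Cd24a has no entry.

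Among the positive members, Ptprc rose and Cd81 did not pass the test. Ptprc (ENSMUSG00000026395; chromosome 1, 138062861 to 138175708 in GRCm38, minus strand) encodes CD45, the transmembrane phosphatase that removes the inhibitory phosphate from Src-family kinases. In control medium its level in replicates 1 to 4 was 427, 435, 427 and 433 normalised CPM (counts relative to library size after edgeR's TMM scaling), and the osteoclast-conditioned replicates had 470.2, 472, 482 and 485. Every osteoclast-conditioned culture was above every control culture. The log2 fold change was 0.15 (SE 0.03; 95% interval 0.10 to 0.20), with an edgeR adjusted p of 3.22e-05. Replicates varied by 0.952% (coefficient of variation) in control medium and 1.55% in the other, close to the 1.14% and 1.08% that counting alone gives.

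Cd81 (ENSMUSG00000037706; chromosome 7, 143052739 to 143067934, plus strand) encodes a tetraspanin, a protein with several membrane passes that organises other proteins at the surface. Control cultures had 143, 144, 136 and 136 normalised CPM, and osteoclast-conditioned cultures 141, 141, 147 and 134. The groups overlapped completely, with the lowest and the highest value both in osteoclast-conditioned medium. The difference was 0.575%, with a 95% interval from -3.92% to 5.28% and an edgeR adjusted p of 0.871. Its sign changed under other scalings (-0.01 on the log2 scale with total counts only).

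Cd24a (ENSMUSG00000047139; chromosome 10, 43578284 to 43584265, plus strand) encodes the lipid-anchored glycoprotein heat-stable antigen, used to stage early B cells and a known ligand of Siglec-G. It went from 380.3, 407, 395 and 389 normalised CPM in control medium to 348, 358, 349 and 337 in osteoclast-conditioned medium. All osteoclast-conditioned cultures were below all control cultures. The log2 fold change was -0.17 (SE 0.03; 95% interval -0.23 to -0.12) with an edgeR adjusted p of 1.24e-05.

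**Figure D1:**
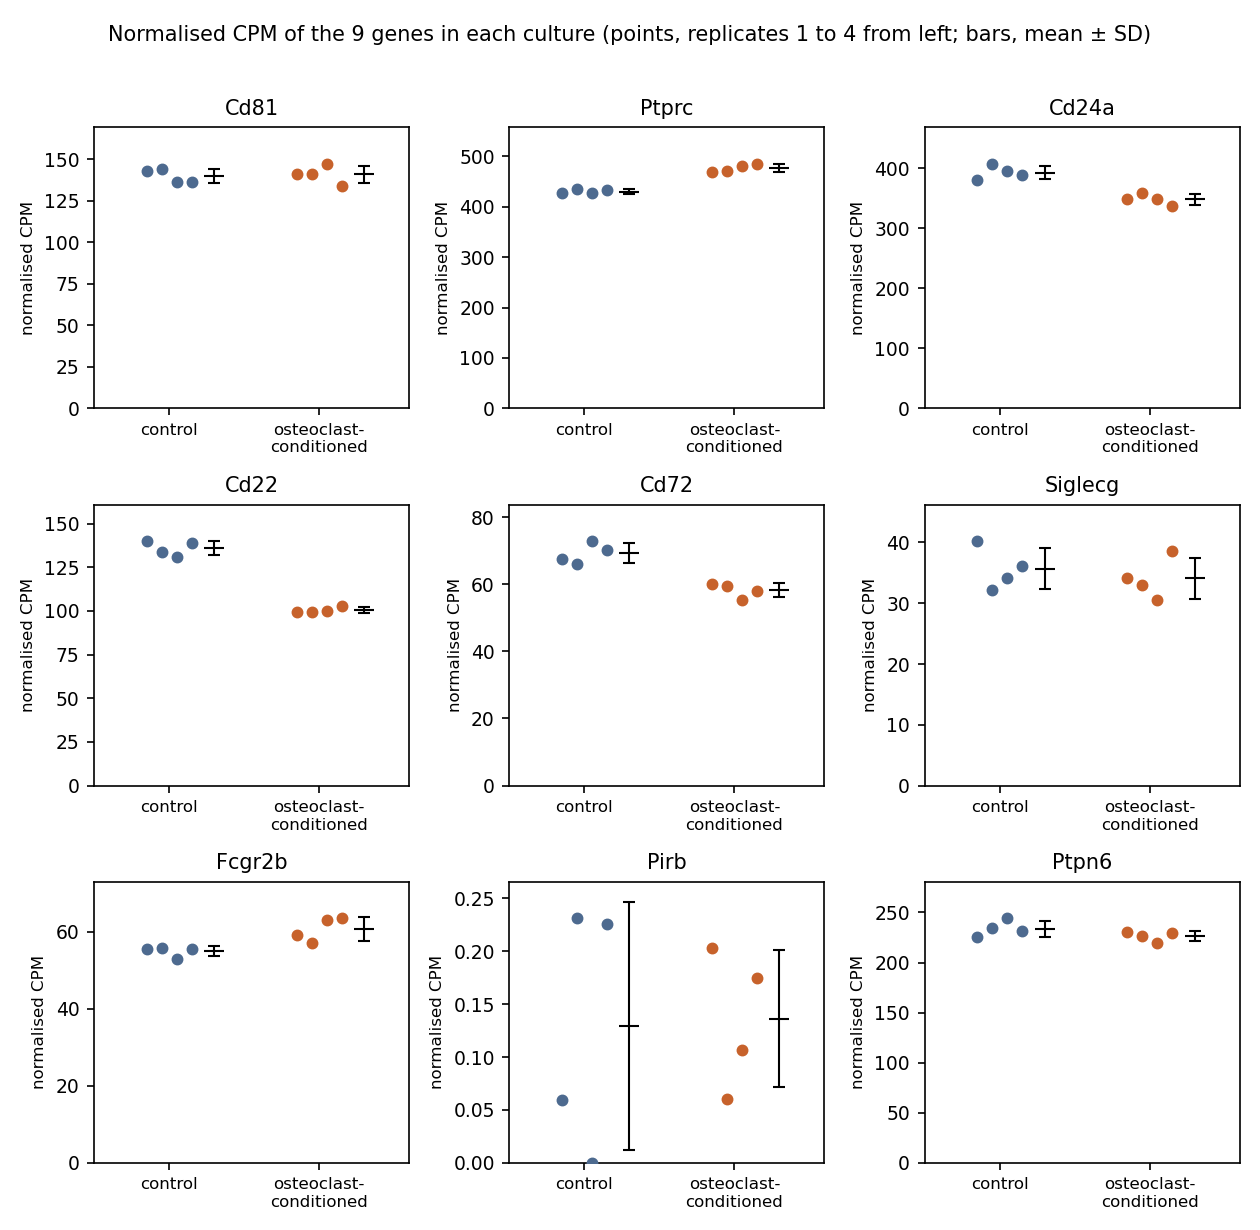
Normalised CPM of each of the 9 genes by medium, on axes that start at 0; each point is a culture, and bars are the mean ± SD of 4 cultures. Cd22 drops from 131 to 139.9 in control medium to 99.2 to 103 in osteoclast-conditioned medium, while Cd81, Siglecg, Pirb and Ptpn6 overlap between media.

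The inhibitory receptors did not move together: 2 fell, 1 rose, 1 did not pass the test and 1 was not tested. Cd22 (ENSMUSG00000030577; chromosome 7, 30865402 to 30880342, minus strand) encodes a sialic acid-binding lectin that dampens B-cell receptor signals. Control cultures had 139.9, 134, 131 and 139 normalised CPM, and osteoclast-conditioned cultures 99.5, 99.2, 100 and 103. The 4 osteoclast-conditioned values lay within a narrow band well under the lowest control value. The log2 fold change was -0.44 (SE 0.03; 95% interval -0.50 to -0.37), with an edgeR adjusted p of 6.50e-12. Of the 10729 genes tested, 239 had a larger fall, Cd22 ranked 37 by p-value, and the median absolute log2 fold change of all called genes was 0.19.

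Cd72 (ENSMUSG00000028459; chromosome 4, 43446462 to 43454628, minus strand) encodes a C-type lectin-like receptor that binds the semaphorin Sema4D. Its level was 67.6, 66.0, 72.8 and 70.3 normalised CPM in control medium and 60.2, 59.5, 55.3 and 58.1 in osteoclast-conditioned medium, again with no overlap. The log2 fold change was -0.25 (SE 0.04; 95% interval -0.33 to -0.16) and the edgeR adjusted p 2.21e-05. In GENCODE M21, 41.6% of the exon bases of Cd72 lie in exons of Tesk1, a kinase gene on the opposite strand, and whether counting used strand is not given in the sources used here. Tesk1 itself had 14.2 to 15.3 normalised CPM in control cultures and 14 to 16.2 in the others (log2 fold change 0.04, edgeR adjusted p = 0.68). Its part in the Cd72 count was not tested.

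Fcgr2b (ENSMUSG00000026656; chromosome 1, 170958617 to 170976547, minus strand) encodes the Fc receptor for IgG that shuts down B cells bound by immune complexes. It moved the other way, from 55.6, 55.8, 52.9 and 55.6 normalised CPM to 59.2, 57.1, 62.9 and 63.4. The groups did not overlap, although the highest control and the lowest osteoclast-conditioned culture were close. The log2 fold change was 0.14 (SE 0.04; 95% interval 0.06 to 0.22) with an edgeR adjusted p of 0.00959. Over the alternatives the adjusted p ran from 0.00414 to 0.0496, the highest without osteoclast-conditioned replicate 3. Fcgr3, the activating Fc receptor with the most similar extracellular part, shares 4.96% of the windows of 50 bases in the longest coding transcript of Fcgr2b. It had between 17 and 37 counts per culture against 817 to 1210 for Fcgr2b.

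Siglecg (ENSMUSG00000030468; chromosome 7, 43408204 to 43418358, plus strand) encodes Siglec-G, a relative of CD22. Control cultures had 40.2, 32.2, 34.2 and 36.2 normalised CPM, and osteoclast-conditioned cultures 34.2, 33.0, 30.5 and 38.6. Both media held a high culture, control replicate 1 and osteoclast-conditioned replicate 4. The replicates varied by 9.54% and 9.85%, more than the 3.96% and 4.04% that counting gives. The log2 fold change was -0.06 (95% interval -0.22 to 0.09; edgeR adjusted p = 0.549), so that a fall as large as that of Cd22 lies outside the interval and a fall of 14.3% does not.

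Pirb (ENSMUSG00000058818; chromosome 7, 3711409 to 3720391, minus strand) encodes a receptor for MHC class I found on myeloid and B cells. It had between 0 and 5 counts per culture, 20 in all, and fell below the filter on low counts. A floor of 3 counts corresponds to 0.138 to 0.194 CPM, and a difference in Pirb was not detectable at this depth. Its longest coding transcript shares 37.3% of its windows of 50 bases with other genes, chiefly Gm14548 (21.7%) and Pira2 (20.7%), so reads from these copies cannot be told apart there. Gm14548 was at 0 counts in every culture. Cd72 shares more than Pirb, 54.3% of its windows, all of them with Tesk1. The remaining 7 members share 0% (Cd81 and Ptprc) to 10.3% (Cd22, mainly with the gene model Gm29439).

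Ptpn6 (ENSMUSG00000004266; chromosome 6, 124720707 to 124738714, minus strand) encodes SHP-1, the phosphatase that acts downstream of CD22, CD72 and Siglec-G. Its values were 225, 234, 244 and 231 normalised CPM in control medium and 230.3, 226, 219 and 229 in osteoclast-conditioned medium, and the groups overlapped. The difference was -2.97%, with a 95% interval from -6.90% to 1.13% and an edgeR adjusted p of 0.278.

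**Figure D2:**
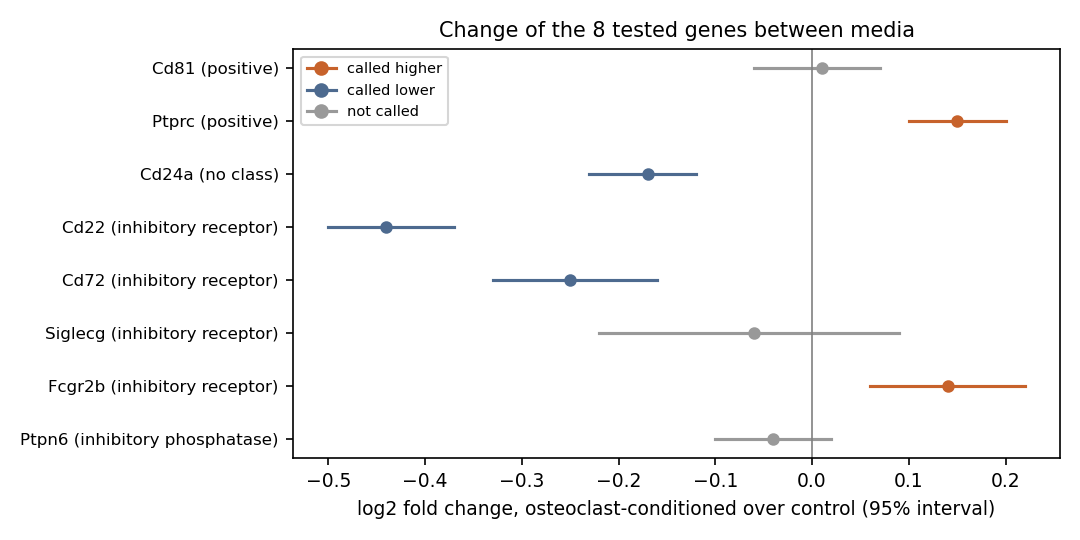
Log2 fold change of the 8 tested genes (osteoclast-conditioned over control) with 95% intervals from edgeR; colours give the call at an adjusted p under 0.05. Cd22 lies farthest from 0 at -0.44, and the inhibitory receptors stand on both sides of 0.

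Set class against class, the median log2 fold change was 0.08 over the 2 positive members and -0.15 over the 4 inhibitory receptors tested, or -0.06 when Ptpn6 was added. The median over all genes tested was -0.01. These medians describe few genes and were not tested. Summed over Cd22, Cd72, Siglecg and Fcgr2b, the level was 303, 288, 291 and 301 normalised CPM in control medium and 253, 249, 249 and 263 in osteoclast-conditioned medium. The sum of Cd81 and Ptprc was 569.9, 579, 563 and 569 against 611, 612, 629 and 619. Ptprc took 75.5% of that sum in control medium and 77.3% in the other. With Cd81 nearly unchanged, the direction of the sum was that of Ptprc. These sums add CPM not divided by length, so longer genes weigh more in them and in the shares. Per kilobase of exon union, Cd81 stood above Ptprc in control medium (48.5 ± 1.45 against 23.5 ± 0.224).

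The make-up of the inhibitory receptor sum, again in CPM not divided by length, differed as well. Cd22 took 46.0% of it in control and 39.7% in osteoclast-conditioned medium, and Fcgr2b 18.6% and 23.9%. Cd72 took 23.4% and 23.0%, nearly the same share. The log2 ratio of Cd22 to Fcgr2b, which does not depend on library scaling, was 1.33, 1.27, 1.31 and 1.32 in control cultures and 0.75, 0.80, 0.67 and 0.70 in osteoclast-conditioned cultures. That of Cd72 to Fcgr2b went from 0.33 ± 0.10 to -0.06 ± 0.12 (SD, n = 4 each). Relative to Ptpn6, Cd22 went from -0.78 ± 0.09 to -1.17 ± 0.04, and relative to Cd81 from -0.04 ± 0.05 to -0.48 ± 0.08. The ratio of the phosphatases Ptprc and Ptpn6 went up, from 0.89 ± 0.05 to 1.08 ± 0.05. Each of these 5 ratios was chosen with a gene in it whose groups do not overlap, so that the separation of the media in them is a description and adds no further evidence.

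**Figure D3:**
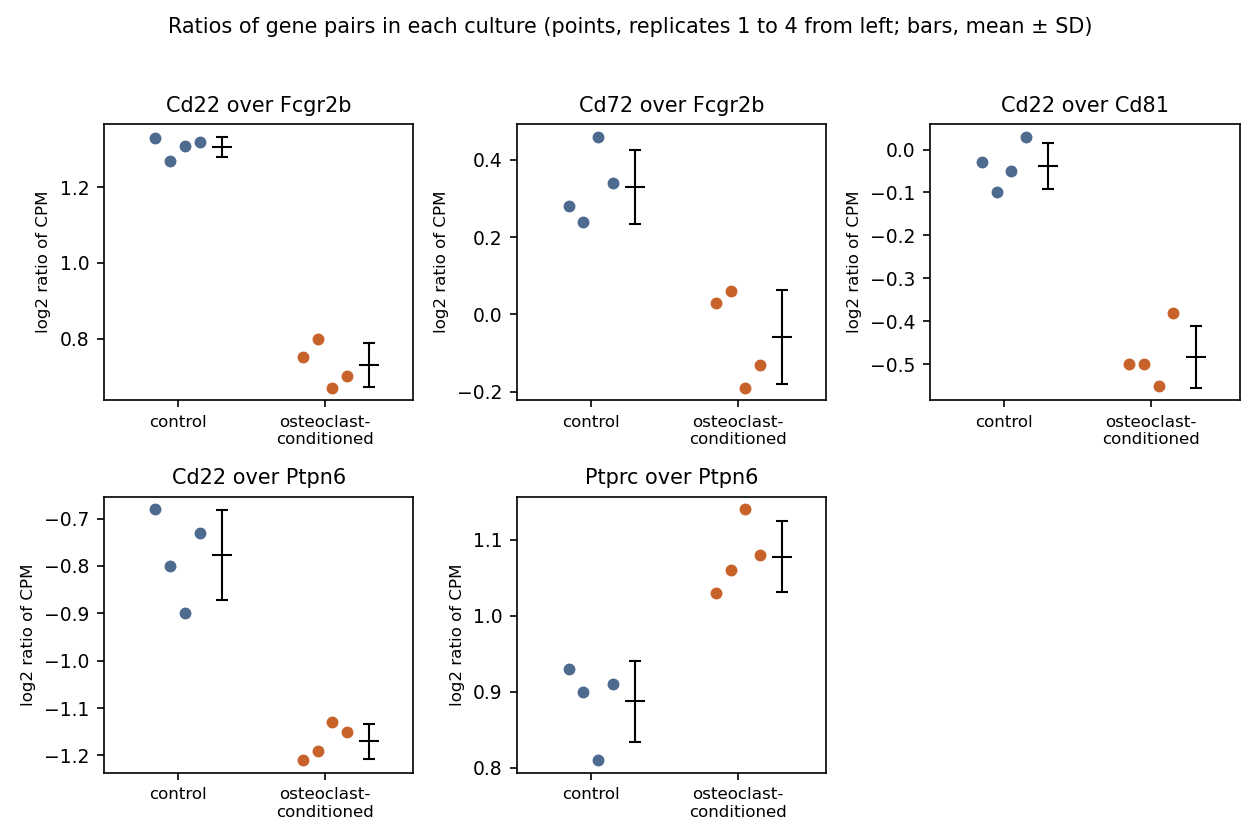
Log2 ratios of normalised CPM for 5 gene pairs in each culture; points are cultures, bars the mean ± SD of 4, and the axes do not start at 0. The 4 ratios with Cd22 or Cd72 on top are lower, and Ptprc over Ptpn6 is higher, in every osteoclast-conditioned culture.

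Levels were compared between genes as normalised CPM per kilobase of the union of a gene's exons. Cd24a was highest, with 152 ± 4.31 in control cultures and 135 ± 3.39 in the others (SD, n = 4 each). Ptpn6 (83.2 ± 2.86 in control medium) and Cd81 (48.5 ± 1.45) followed, then Ptprc (23.5 ± 0.224), Cd22 (27.0 ± 0.837), Cd72 (20.2 ± 0.875), Fcgr2b (9.49 ± 0.241), Siglecg (7.43 ± 0.709) and Pirb (0.0288 ± 0.0262), in the order of the mean over all cultures. Over the 8 cultures, the ranges of Ptprc (23.3 to 26.5) and Cd22 (19.7 to 27.8) overlapped, as did those of Cd22 and Cd72 (16.2 to 21.3), and no other neighbours in the order did. Per kilobase of exon union, Cd22 stood above Ptprc in control medium and below it in osteoclast-conditioned medium (19.9 ± 0.36 against 26.1 ± 0.405). That crossing rests on the length used: the exon union of Ptprc spans 18313 bases and its longest transcript 5740, and per kilobase of the longest transcript Ptprc was above Cd22 in both media (75.0 ± 0.714 against 34.2 ± 1.06 in control).

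**Figure D4:**
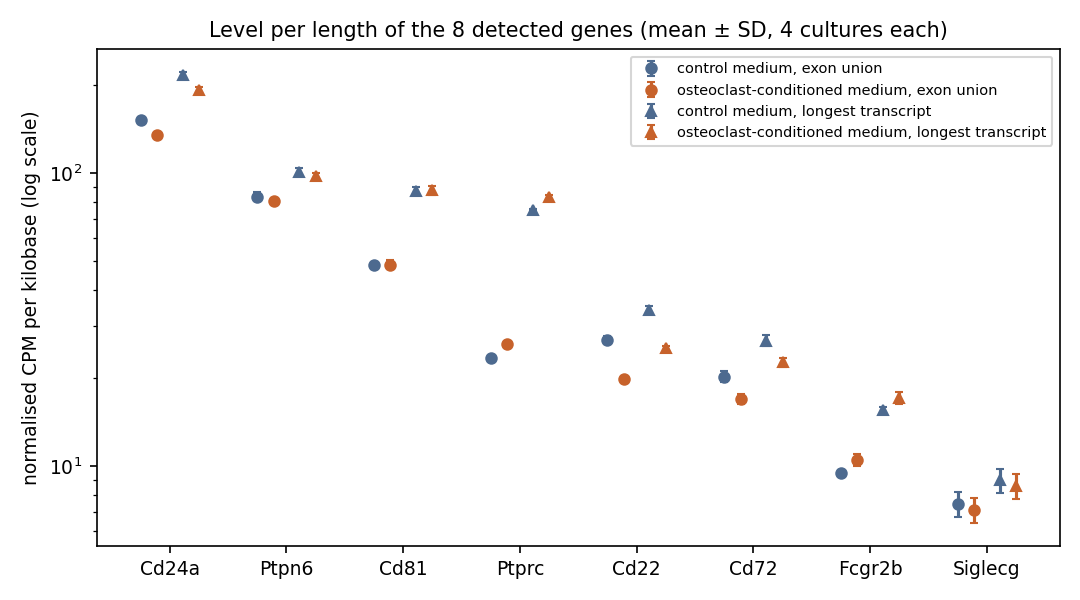
Normalised CPM per kilobase (log scale) of the 8 detected genes; circles use the union of exons and triangles the longest transcript, with the mean ± SD of 4 cultures in each medium. Cd24a is highest and Siglecg lowest by both lengths, and Ptprc moves most with the length used.

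The cultures carried most of the B-lineage genes listed, but not all those of early stages. Of 16 B-lineage markers, 13 passed the filter, among them Cd79a, Pax5, Ebf1, Vpreb1 and Igll1. Ms4a1, a marker of later B cells, had 0 to 2 counts. Rag1 and Rag2, which are genes of early stages, were listed at 0, and the reason was not tested. The summed level of the 16 was 5731 to 5769 normalised CPM in control and 6089.6 to 6122 in osteoclast-conditioned medium. That is the direction of Ptprc and Fcgr2b and opposite to that of Cd22, Cd72 and Cd24a. Over all genes tested, 15.7% were called higher and 14.8% lower. Of the 13, 6 were called higher (Cd79a, Cd79b, Pax5, Vpreb1, Vpreb3 and Blnk, log2 fold changes of 0.10 to 0.29) and 0 lower. The other 7 did not pass the test (Ebf1, Igll1, Dntt, Il7r, Cd93, Spn and Enpep). The part of these B-lineage genes in the results for the coreceptors was not tested. Osteoclasts and macrophages also carry members of this set, Fcgr2b, Pirb and Ptpn6 among them. The 15 markers of these cells, of which 4 passed the filter, summed to 42.5 to 44.4 in control cultures and 41.9 to 47.1 in the others. Of the 4, Lyz2 was called higher, in the direction of Fcgr2b and Ptprc. It had 3.89 to 4.86 normalised CPM in control cultures and 4.99 to 6.89 in the others (log2 fold change 0.40, edgeR adjusted p = 0.0119). Itgb3 was called lower (11.6 to 14.4, and 10.3 to 11.2, log2 fold change -0.25, edgeR adjusted p = 0.0185), and Acp5 and Cd68 did not pass the test. The defining markers Dcstamp, Ocstamp and Itgam were at 0 counts and Csf1r at 0 to 6. The part of such cells in the results for Fcgr2b and the other members was not tested. A 0 in the marker lists may also come from how reads were assigned where genes overlap, which was not tested. The granulocyte list (7 genes, with Elane, S100a8 and S100a9 at 0) and the T and NK cell list (7 genes, with Cd3g, Cd8a and Ncr1 at 0) summed to at most 0.305 and 0.467 normalised CPM in any culture. The stroma list (6 genes, with Col1a2 and Cxcl12 at 0) summed to 9.22 to 12.8, nearly all of it Runx2. In bulk RNA of this kind, fewer cells that carry a gene and less RNA of it per cell cannot be told apart.

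Of 118 further genes of the pathway, in 7 lists, 110 matched a gene ID and 79 were tested. Of these, 22 were called higher and 9 lower (39.2%, against 30.5% of all genes tested), with a median log2 fold change of 0.03. In the list of the coreceptor complex and its phosphoinositide 3-kinase arm, which includes Cd81, 6 of 12 tested genes were higher and 1 lower, the latter Pik3r5 (a regulatory kinase subunit, named here after its value was seen). Ifitm1, a small membrane protein of the same complex, rose by 0.33 on the log2 scale, the exchange factor Vav2 by 0.29 and the kinase subunit Pik3cg by 0.16 (edgeR adjusted p of 8.91e-05 or less for each). Among 13 tetraspanins and partners of Cd81 tested, Cd82 (12.9 to 17.1 normalised CPM in control cultures, 21.9 to 25.1 in the others) and Cd53 (123 to 155, and 189 to 202) rose with log2 fold changes of 0.65 and 0.49 (edgeR adjusted p of 2.33e-07 and 8.88e-05). Tspan32 fell by 0.11, a call lost under 9 of 17 alternatives (edgeR adjusted p = 0.0485).

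The enzymes and ligands that the inhibitory receptors bind were also measured. St6gal1, the transferase that makes the α2,6-linked sialic acid recognised by CD22, had 437, 476, 459.8 and 463 normalised CPM in control cultures and 389, 397, 406 and 373 in the others. Every osteoclast-conditioned culture was lower, as for Cd22. Its log2 fold change was -0.23 (SE 0.03, edgeR adjusted p = 4.36e-07). Sema4d, the ligand of CD72, rose by 0.13 (edgeR adjusted p = 0.000987), and so did the MHC class I genes H2-D1 (0.14) and H2-K1 (0.15), ligands of the receptor that Pirb encodes, which belong to a family of near-identical genes whose reads may have been split in counting. In all, 4 of the 17 genes tested in this list were higher and 4 lower (47.1%, against 30.5% of all genes tested). The remaining ones were St3gal3, higher, and St3gal6, Cmah and Hmgb1, lower, named after their values were seen. The call of St3gal3 was lost when control replicate 2 was left out (edgeR adjusted p = 0.0639) and that of Hmgb1 when osteoclast-conditioned replicate 4 was (0.0629). B2m, Nanp and the CD45-associated Ptprcap had 0 counts in every culture, and most of their exon bases lie within the span of another gene, so their counts give no measure.

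Downstream of the receptors, 6 of 21 tested phosphatases, kinases and adaptors were higher and 1 lower (33.3%, near the 30.5% of all genes tested). The lower one was Inppl1, named after its value was seen. Its call was lost in 6 of 17 alternatives (edgeR adjusted p of at most 0.108). Those left out control replicate 1, 3 or 4 or osteoclast-conditioned replicate 1, 2 or 3. Pag1, the adaptor that anchors the inhibitory kinase CSK, rose by 0.20, the ubiquitin ligases Cbl and Cblb by 0.21 and 0.14, and the phosphatase Ptpn22 by 0.22 (edgeR adjusted p of 0.0045 or less). Inpp5d, which encodes SHIP-1, had 544 to 582 normalised CPM in control cultures and 584 to 611 in the others, with a log2 fold change of 0.08. Its edgeR adjusted p was 0.0158, but 0.0531 with total counts only, 0.0765 when control replicate 4 was left out and 0.0513 when osteoclast-conditioned replicate 3 was. Ptpn11, the related phosphatase SHP-2, had a log2 fold change of 0.07 and an edgeR adjusted p of 0.0591, which was under 0.05 in 5 of 17 alternatives. Lyn, the kinase that phosphorylates the inhibitory motifs, had 107 ± 4.88 and 108 ± 1.29 normalised CPM (edgeR adjusted p = 0.989; 95% interval of the log2 fold change -0.07 to 0.07).

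Among 10 other inhibitory receptors tested, 2 were higher and 0 lower (20.0%, under the 30.5% of all genes tested). These were Pecam1 (61.9 ± 0.445 to 72.1 ± 2.90 normalised CPM, log2 fold change 0.22, edgeR adjusted p = 3.32e-05) and Sirpa. Sirpa, named after its value was seen, had means of 1.75 and 2.52 normalised CPM and an edgeR adjusted p of 0.0442. That call was lost in 9 of the 16 alternatives that gave a value (adjusted p from 0.00772 to 0.161 over them), among them those leaving out control replicate 1, 3 or 4 or osteoclast-conditioned replicate 3 or 4. Fcgr3 was the only gene of its list to pass the filter on low counts, with a log2 fold change of 0.49 (95% interval 0.05 to 0.93) and an edgeR adjusted p of 0.087. Of 6 relatives and regulators of CD45 tested, 66.7% were called, against 30.5% of all genes tested. Ptpre (0.37) and Ptprj (0.14), both transmembrane phosphatases, rose. Hnrnpll, which controls the splicing of Ptprc, fell by 0.15 (edgeR adjusted p = 0.00894) and the galectin Lgals1 by 0.13 (edgeR adjusted p = 0.0241, over 0.05 in 6 of 17 alternatives). The count table gives no isoforms, so the splicing of Ptprc was not measured.

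**Figure D5:**
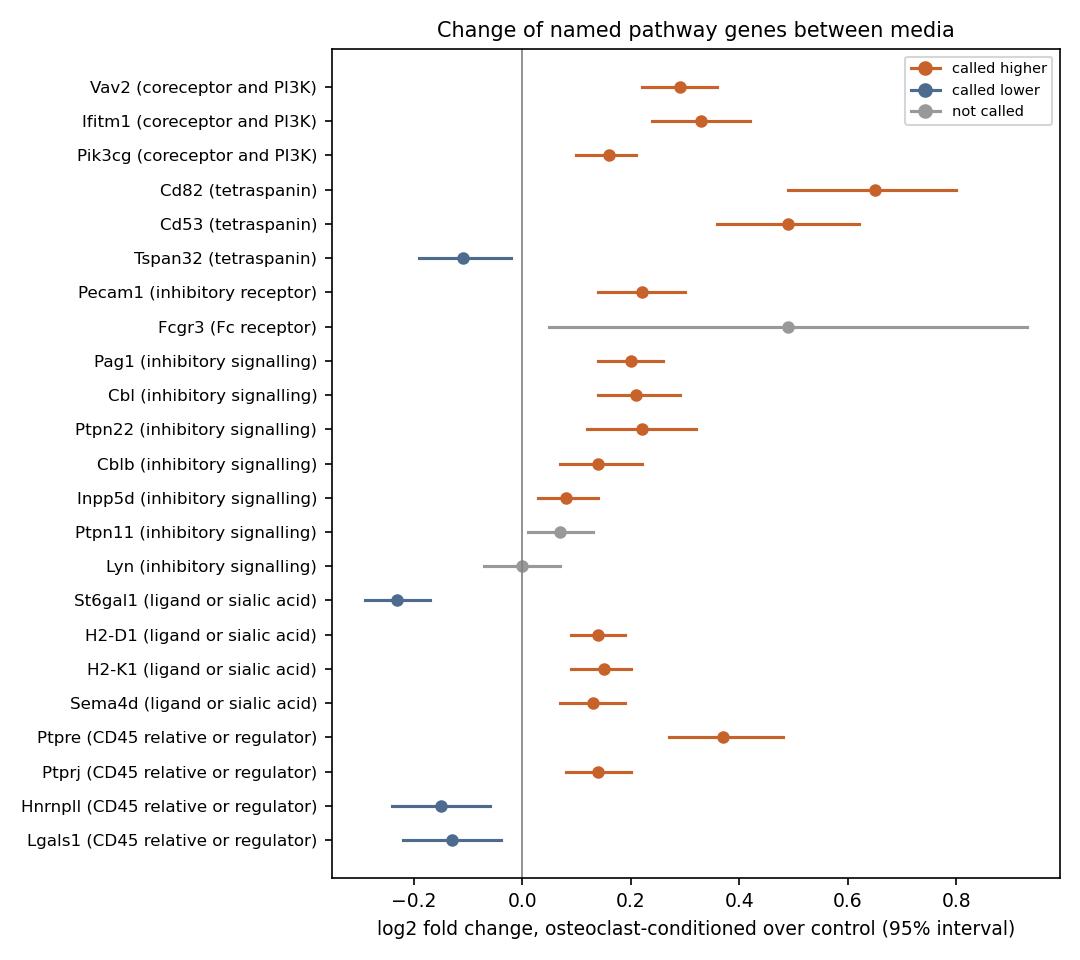
Log2 fold change (osteoclast-conditioned over control) with 95% intervals for the named pathway genes, labelled by list and coloured by the call at an adjusted p under 0.05. Among the called genes plotted, which leave out those named after their values were seen, Cd82 and Cd53 lie farthest above 0 and St6gal1 farthest below.

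The genes whose pattern over the 8 cultures was most like that of Cd22 were the splicing factor Srsf6 (Pearson r = 0.994), the corepressor Aes (0.992) and the mitochondrial protease Afg3l2 (0.99), with log2 fold changes of -0.15, -0.37 and -0.12. Those most like Ptprc were Hmox1 (0.99), Grk5 (0.989) and Arhgap31 (0.989), with 0.67, 0.73 and 0.32. The values are of log2 normalised CPM, and all points share the division into 2 media, which both genes follow.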

How the data were processed

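RNA counts of 8 PER-M60 cultures (4 per medium) were used. Per the submitters' processing notes, STAR 2.7.5a, featureCounts 2.0.1 and the build mm10 were used. The deposited table holds unnormalised read counts for each Ensembl gene; annotation, strand setting and molecular barcodes are not given in the sources used here. Columns were matched by header number to the sample descriptions (0 unmatched). Symbols, positions and lengths came from GENCODE M21 (GRCm38; 21817 of 21859 IDs matched).

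From the counts, genes passing filterByExpr (10729) were scaled by TMM and tested with edgeR 4.0.16 (R 4.3.3; glmQLFit robust, glmQLFTest, medium as the only term), with Benjamini-Hochberg adjustment over all genes tested and a threshold of 0.05. The standard error is the absolute log2 fold change over the square root of F, and 95% intervals use the fit's degrees of freedom. Normalised CPM use TMM-scaled library sizes. The fit was tested on simulated counts, where the share of false calls was above the nominal level, so calls just under the threshold are less certain than their adjusted p states. Shared windows are exact matches of 50 bases, on either strand, between transcripts. Python 3.11.15 and matplotlib 3.10.9 drew the figures. Alternatives were other scalings, filters (1 count in all, or a mean of 50), DESeq2 1.42.0, limma-voom (limma 3.58.1), no robust estimation, the replicate block, an adjusted p under 0.01, and each sample left out.

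The members, lists and tests were chosen with earlier results of these data known. Named genes were the members, per list up to 4 called genes, those with the smallest p-values among means of 5 CPM or more, 6 preset genes (Fcgr3, Inpp5d, Ptpn11, Lyn, Sema4d and St6gal1), and for the called positive and inhibitory members with the smallest p-value, the 3 genes with the highest correlation of log2 CPM (prior count 2). Some genes of the lists are not reported here and were left out of the list and marker counts.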

Additional observations from a re-analysis of the deposited data

Results flagged for a closer look

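In 3 of 62 groups of 4 cultures examined (the 8 tested members and the named pathway genes, each in both media), 1 culture stood far from the other 3, with a gap to the nearest that exceeded Dixon's critical share of the group's range; chance gives about 3.1 such groups. Among the members this was Fcgr2b in control medium, lowest in replicate 3 at 52.9 normalised CPM against 55.6 to 55.8. The others were Pecam1 in control replicate 3, highest at 62.5 against 61.6 to 61.7, and Cblb in osteoclast-conditioned replicate 4, lowest at 64.9 against 67.6 to 68.1.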

How the results depend on the processing

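The calls of Ptprc, Cd24a, Cd22, Cd72 and Fcgr2b kept their direction and an adjusted p under 0.05 in all 17 alternative fits, and with an adjusted p under 0.01 the same number of members, 5, was called, while 2147 genes were called in the table (948 lower, against 1584) and 4 in place of 7 of the inhibitory signalling list. Leaving out 1 culture gave log2 fold changes of -0.45 to -0.42 for Cd22, -0.13 to 0.00 for Siglecg, -0.06 to -0.02 for Ptpn6 and -0.01 to 0.03 for Cd81. The adjusted p of Ptpn6 ran from 0.079 (total counts only) to 0.632 (without control replicate 3). Reversed signs were seen for Cd81 with total counts only (-0.01) and upper quartile (0.00), and for Lyn with the same scalings (-0.02 and -0.01). In leave-one-out fits the sign also reversed for Cd81 (without control replicate 3 or 4 or osteoclast-conditioned replicate 3), Siglecg (without control replicate 1) and Lyn (without replicate 3 of either medium; -0.02 to 0.03 over all such fits). The other inhibitory receptors called were 1 in place of 2 in 10 settings, among them those without control replicate 3 or 4 and without osteoclast-conditioned replicate 3 or 4. With total counts only, 40.7% of called genes were higher, against 51.6%. The longest transcript in place of the exon union gave levels per kilobase of 204 for Cd24a, 99.5 for Ptpn6, 87.2 for Cd81, 79.1 for Ptprc, 29.8 for Cd22, 24.7 for Cd72, 16.3 for Fcgr2b and 8.74 for Siglecg. With the replicate block 3446 genes were called, against 3273, and no call of a member changed; same-numbered cultures had a mean correlation of 0.0372 (from -0.0507 to 0.143), and 1 of 4 correlated best with its own number, so the numbers were not taken as pairs. The cause of these changes was not tested.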
